A study of Mus musculus with 50 samples.

Results

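Cask, the 3 Lin7 genes and 6 genes of the postsynaptic scaffold were followed in the mouse hippocampus on two-color Agilent arrays. The members are Cask, Lin7a, Lin7b, Lin7c, Dlg1, Dlg2, Dlg3, Dlg4, Dlgap1 and Shank3. They were found by the RefSeq accession of a probe or by the symbol given in parentheses in its description, which gave 16 of 41174 probes, and 10 of 16442 genes with a current symbol on the array. RNA came from the hippocampi of 5 wild-type (WT) and 5 transgenic (TG) male mice, the latter over-expressing DCLK-short, a constitutively active splice variant of doublecortin-like kinase, on a C57/BL6j background. All mice were housed singly before dissection. Their age and the promoter of the transgene are not given in the sources used here. Each of 10 arrays held 1 WT and 1 TG mouse, and each mouse was on 2 arrays, once in Cy3 and once in Cy5, with different partners. Arrays 1 to 5 are labelled with TG in Cy5 and arrays 6 to 10 with TG in Cy3.

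CASK is a scaffold protein of the MAGUK family, which at synapses binds neurexin on the presynaptic side and forms a complex with LIN7 (also called Veli or MALS) and MINT1. The Dlg genes encode the MAGUK scaffolds SAP97 (Dlg1), PSD-93 (Dlg2), SAP102 (Dlg3) and PSD-95 (Dlg4). These hold glutamate receptors and adhesion proteins under the postsynaptic membrane, and the protein of Dlgap1 (GKAP) links them to SHANK3, which lies deeper in the postsynaptic density.

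A log2 ratio is that of TG over WT, with the sign given by the labels. The direction of the labels is in doubt. Tmem254a, a gene with a large difference on both platforms that were examined, was lower in TG by a mean log2 ratio of -0.99 on Agilent as labelled (SE 0.05, FDR 1.02e-05 by limma, negative on all arrays). On ABI, a one-color platform with 1 mouse per array, the same gene was higher in TG by 1.73 on the log2 scale (SE 0.16, FDR 0.0045 by limma, 5 WT and 5 TG mice). The direction as labelled is opposite to that of the study for this platform. If arrays 1 to 5 were exchanged with arrays 6 to 10, the sign of every log2 ratio over the 10 arrays would be turned, with its size and FDR unchanged. Values per mouse, and values without some of the mice, would change in other ways, since the exchange also assigns the arrays to other mice. The arrays left out as mouse TG4, or as WT4, would still share 1 mouse, so values without them would only turn in sign. Dclk1, the gene of the transgene, had 4 probes with log2 ratios between -0.08 and -0.06, and none passed the FDR. These probes are not known to lie in the transgene, so they do not check the labels.

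Arrays 1 and 9, which share mouse TG4 as labelled (and mouse WT5 if the arrays were exchanged), stood apart. Their log2 ratios over all probes had an SD of 0.32 and 0.38, against 0.14 to 0.23 on the other arrays, and their correlation with each other across probes was 0.80. On these arrays the median log2 ratio of 8 oligodendrocyte marker probes was -0.70 and -0.80, against -0.38 to 0.09 on the others. The median of 14 neuronal marker probes, at -0.11 and -0.05, was within the -0.18 to 0.22 of the other arrays, but the lowest of these probes was at -3.69 and -3.88, against -0.92 to -0.23 on the others. All 14 neuronal probes were present, as were both probes of Prox1, the listed marker of dentate granule cells. Of all 41174 probes, 33793 were present. Results that rest on these arrays are given with and without them.

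Of the 16 probes of the members, 5 passed an FDR of 0.1 (limma, Benjamini-Hochberg over all probes), against 7.41% of all probes and 8.83% of present probes. The members were chosen with earlier results of these data known, and some probes measure the same gene. One probe of Cask, one of Lin7c and both of Dlg1 were lower in TG as labelled, where 3.76% of all probes were called, and the probe of Lin7b was higher, where 3.66% were called. The other 11 probes, among them every probe of Lin7a, Dlg2, Dlg3, Dlg4, Dlgap1 and Shank3, did not pass. The median log2 ratio was -0.08 over the 16 probes and 0.00 over all probes. Since each mouse is on 2 arrays, these FDR values treat shared mice as separate observations. With 1 value per mouse, 0 of the 16 probes passed (limma, 3 at an unadjusted p under 0.05), against 24 of all probes (0.0583%). That fit also sets aside the pairing of a WT and a TG mouse on each array. The reuse of mice and the loss of pairing therefore cannot be told apart in these counts. Without mouse TG4, 3 of the 16 probes and 2016 of all probes passed, and leaving out each of the 10 mice in turn gave between 0 (without mouse WT4; limma, 9 at an unadjusted p under 0.05) and 4 member probes. All 16 probes were present, that is, brighter in Cy3 and in Cy5 on every array than 95% of its 314 negative control spots, and none was saturated.

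**Figure D1:**
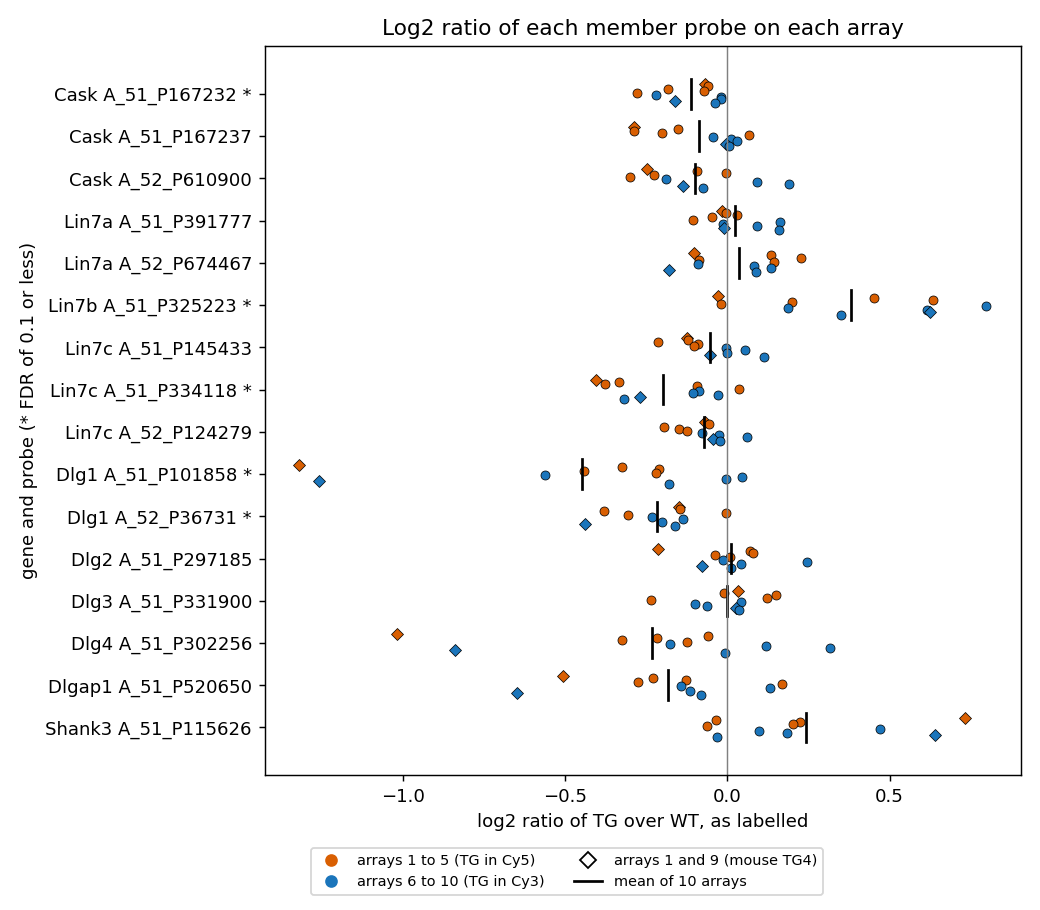
Log2 ratio of TG over WT (x axis, as labelled) of each member probe (rows) on each of 10 arrays, colored by dye orientation, with the mean as a black line. The diamonds of arrays 1 and 9 lie far from the other points for Dlg1 A_51_P101858 and Dlg4, and all points of Cask A_51_P167232 and Dlg1 A_52_P36731 lie below 0.

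Cask was measured by 3 probes. The probe A_51_P167232 lies at X:11760013-11760070 on the minus strand in the coordinates of the files, whose build is not given in the sources used here. Its log2 ratios were -0.07, -0.06, -0.18, -0.07 and -0.28 on arrays 1 to 5 and -0.22, -0.02, -0.02, -0.16 and -0.04 on arrays 6 to 10. All arrays were below 0, which was the case, or the opposite, for 2.11% of all probes. The mean was -0.11 ± 0.09 (SD, n = 10 arrays), a fold of 1.08, with an FDR of 0.0717 by limma. Mean signals per mouse overlapped, since TG3 at 7.24 on the log2 scale exceeded WT3 and WT4 at 7.22 and 7.20. Without mouse TG4 the log2 ratio was unchanged to 2 decimals at -0.11, but the FDR was 0.153. The other Cask probes had the same sign without passing: A_51_P167237 had a log2 ratio of -0.09 (FDR 0.285 by limma) and A_52_P610900, designed on another transcript record, had -0.10 (FDR 0.282 by limma). A_51_P167237 was at -0.17 on arrays 1 to 5 and at 0.00 on arrays 6 to 10. The dye term of this probe had an FDR of 0.103 by limma. When the 3 probes were averaged, Cask had a log2 ratio of -0.10 (SE 0.03, FDR 0.0898 by limma).

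The LIN7 proteins, small PDZ scaffolds that bind CASK, were measured by 6 probes, of which 2 passed in opposite directions. Lin7b (A_51_P325223, 7:39445497-39445556, minus strand) had log2 ratios of -0.03, 0.45, 0.63, 0.20 and -0.02 on arrays 1 to 5, and of 0.80, 0.19, 0.61, 0.63 and 0.35 on arrays 6 to 10. It was above 0 on 8 of 10 arrays, with a mean of 0.38 ± 0.29 (SD, n = 10 arrays), and an FDR of 0.0363 by limma. The 5 TG mice lay between 9.58 and 9.76 on the log2 signal scale, and the 5 WT mice were more spread, from 8.92 to 9.58. The lowest TG mouse was just below the highest WT mouse, so the groups overlapped. Without mouse TG4 the log2 ratio was 0.40 (FDR 0.0489 by limma).

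For Lin7c, the probe A_51_P334118 (2:109524137-109524196, plus strand) was below 0 on 9 of 10 arrays, from -0.40 to 0.04. Its values were -0.40, -0.33, -0.38, -0.09 and 0.04 on arrays 1 to 5, and -0.09, -0.11, -0.03, -0.27 and -0.32 on arrays 6 to 10. The mean was -0.20 ± 0.16 (SD, n = 10 arrays), with an FDR of 0.0498 by limma, and without mouse TG4 it was -0.16 (FDR 0.128 by limma). The other 2 probes of Lin7c lie upstream within the same stretch of chromosome 2, at 109521084-109521143 and 109521336-109521395. Their log2 ratios were -0.07 (A_52_P124279, FDR 0.164 by limma) and -0.05 (A_51_P145433, FDR 0.397 by limma). With the WT or the TG mouse as a replicate block, where the consensus correlation was negative, A_52_P124279 had an FDR of 0.0667 or 0.104 by limma. It was called in 4 of 33 alternatives. Among these were a dye term in the model (FDR 0.0809 by limma) and the scanner software's log ratio (-0.35, FDR 0.0576 by limma). A_52_P124279 and A_51_P145433 were dimmer, being well above background in both channels on 6 and 3 of 10 arrays. A_51_P145433 is the one member probe that differed between dye orientations. It was at -0.13 ± 0.05 (SD, n = 5) on arrays 1 to 5 and at 0.02 ± 0.06 (SD, n = 5) on arrays 6 to 10 (FDR of the dye term 0.0354 by limma; 22.6% of all probes had a dye term under the limit). Lin7a did not pass with either probe, with log2 ratios of 0.02 (A_51_P391777) and 0.04 (A_52_P674467, FDR 0.754 by limma, the smaller of both).

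**Figure D2:**
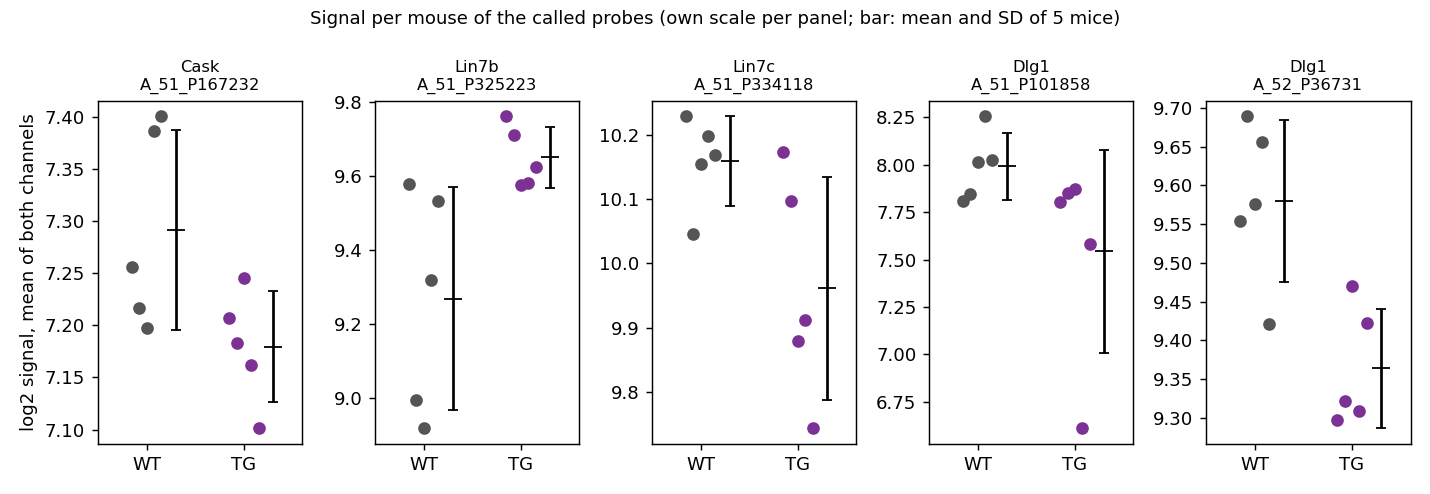
Log2 signal per mouse (y axis, mean of the Cy3 and Cy5 channels after loess and Aquantile normalization) of the 5 called probes in 5 WT and 5 TG mice, with the mean and SD beside the points. Each panel has its own scale, the groups overlap in every panel, and mouse TG4 is the lowest point of Dlg1 A_51_P101858 at 6.61.

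Dlg1, which encodes SAP97, was called with both probes. A_52_P36731 (16:30682636-30682695, plus strand) was at -0.15, -0.15, -0.38, -0.00 and -0.30 on arrays 1 to 5 and at -0.23, -0.14, -0.20, -0.44 and -0.16 on arrays 6 to 10. All arrays were below 0 and the mean was -0.22 ± 0.13 (SD, n = 10 arrays), a fold of 1.16, with an FDR of 0.0223 by limma, the smallest of the members. The 5 TG mice were between 9.30 and 9.47 and the 5 WT mice between 9.42 and 9.69, so the groups overlapped by WT6. Without mouse TG4 the log2 ratio was -0.20 (FDR 0.047 by limma).

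The other Dlg1 probe, A_51_P101858 (16:30672548-30672607, plus strand), had a larger mean of -0.45 ± 0.48 (SD, n = 10 arrays), with an FDR of 0.0946 by limma. Arrays 1 and 9 were at -1.32 and -1.26, and the other arrays were between -0.56 and 0.05. Without mouse TG4 the log2 ratio was -0.24 (FDR 0.0914 by limma). Over the 10 arrays, which share mice, the log2 ratios of both probes had a Pearson r of 0.25.

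Dlg4, Dlgap1 and Shank3 did not pass, and arrays 1 and 9 were their most extreme arrays. Dlg4 (A_51_P302256), which encodes PSD-95, was at -1.02 and -0.84 on these arrays and between -0.33 and 0.32 on the others. Its mean log2 ratio was -0.23 (FDR 0.31 by limma) and -0.06 without mouse TG4. Dlgap1 (A_51_P520650) was at -0.51 and -0.65 on these arrays and between -0.28 and 0.17 on the others, with a mean of -0.18 (FDR 0.193 by limma) and of -0.08 without mouse TG4. Shank3 (A_51_P115626) went the other way, with 0.73 and 0.64 on these arrays and -0.06 to 0.47 on the others. Its mean was 0.24 (FDR 0.124 by limma) and 0.13 without mouse TG4 (FDR 0.285 by limma). With the WT or the TG mouse as a replicate block, where the consensus correlation was negative, its FDR was 0.0554 or 0.0966 by limma. The part of the marker values of these arrays in the results was not tested.

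Among the 16 member probes, those of Dlg2 and Dlg3, which encode PSD-93 and SAP102, had the log2 ratios nearest to 0. Dlg2 (A_51_P297185) was at 0.01 ± 0.12 (SD, n = 10 arrays), with an FDR of 0.932 by limma, and Dlg3 (A_51_P331900) at 0.00 ± 0.11 (SD, n = 10 arrays), with an FDR of 0.999 by limma. Their arrays were on both sides of 0, from -0.22 to 0.25 and from -0.23 to 0.15. The signal of Dlg3 was between 10.34 and 10.60 in WT mice and between 10.42 and 10.56 in TG mice.

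**Figure D3:**
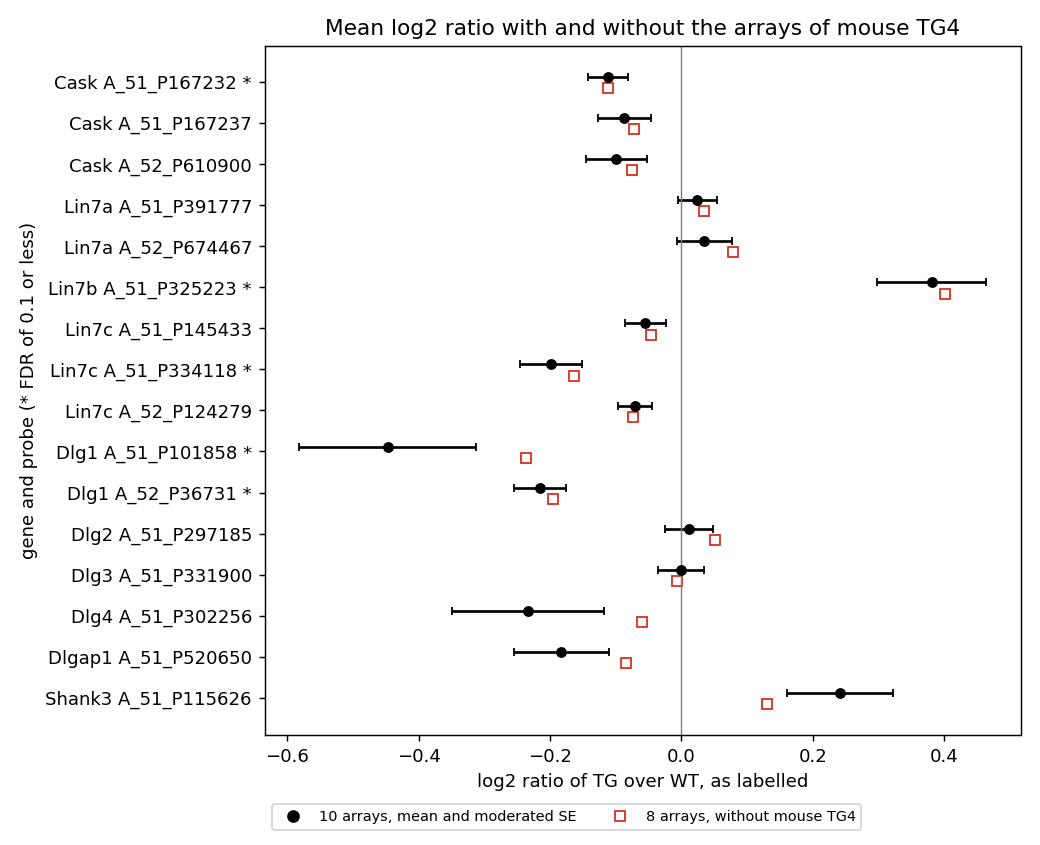
Mean log2 ratio of TG over WT (x axis, as labelled) of each member probe over 10 arrays with its moderated SE (black) and over the 8 arrays without mouse TG4 (red squares). The values of Dlg1 A_51_P101858, Dlg4, Dlgap1 and Shank3 moved toward 0, and the other called probes moved by less than their SE.

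A further 9 probes were designed on cDNA clones whose description names the product of a member, and they lie outside the rule for the members. Of these, 3 passed the FDR, all lower in TG as labelled. For Dlgap1, the clone probes A_52_P443073 (log2 ratio -0.47, FDR 0.0188 by limma) and A_52_P444618 (-0.28, FDR 0.0401 by limma) passed, and A_52_P445843 (-0.10, FDR 0.563 by limma) did not. A_52_P443073 was below 0 on all 10 arrays, its mice did not overlap (the case for 2.08% of all probes), and without mouse TG4 it was at -0.35 (FDR 0.0154 by limma). A_52_P444618 did not pass without this mouse, at -0.23 (FDR 0.104 by limma). For Dlg1, A_52_P499543 was at -0.10 (FDR 0.0806 by limma, and 0.123 without mouse TG4) and A_52_P499541, which differed between dye orientations (FDR of the dye term 0.0161 by limma), at -0.03. The clone probe of Dlg4 (A_52_P153721) had a mean of -0.32 (FDR 0.536 by limma), with -1.94 and -1.80 on arrays 1 and 9 and values above 0 on 6 of 10 arrays. Without mouse TG4 its sign turned, to 0.06 (FDR 0.817 by limma). For Dlg2, the clone probe A_52_P89049 was brighter than the member probe, at a mean log2 signal of 9.31 against 6.40. It was at 0.13 (FDR 0.295 by limma), above 0 on 8 of 10 arrays, and at 0.06 without mouse TG4 (FDR 0.693 by limma). The other Dlg2 clone probe, A_52_P236484, was not present and was at -0.02 (FDR 0.874 by limma). The clone probe of Lin7a (A_52_P298986) was at 0.07 (FDR 0.541 by limma).

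Among 25 listed partners of CASK and LIN7, 24 had a probe, and 1 of their 34 probes passed. This was Apba3 (A_51_P285960), at 0.23 (FDR 0.0838 by limma, above 0 on 9 of 10 arrays, FDR 0.187 without mouse TG4). Apba3 encodes a MINT adaptor other than the MINT1 of the complex with CASK and LIN7. The probe of Apba1, which encodes MINT1, was at 0.03 (A_52_P429944, FDR 0.834 by limma). Neurexins, neuroligins and Caskins did not pass over the 10 arrays. Without mouse TG4, a probe of Nrxn2 (A_51_P431831, 0.23, FDR 0.056 by limma) and the probe of Mpp6 (A_51_P265327, 0.29, FDR 0.0673 by limma) passed. The other probe of Nrxn2 (A_51_P431827) did not pass without this mouse, at 0.09 (FDR 0.556 by limma). Among 24 other postsynaptic scaffold genes, 18 had a probe, and 3 of their 27 probes passed. The probe of the dynein light chain Dynll1 (A_51_P414518, 0.55, FDR 0.0503 by limma) and 1 of 3 probes of Dynll2 (A_51_P203878, 0.34, FDR 0.0432 by limma) were higher. The other probes of Dynll2 did not pass and had opposite signs, at 0.43 (A_51_P437144, FDR 0.179 by limma) and -0.08 (A_52_P429909, FDR 0.904 by limma). The scaffold Magi1 (A_51_P406346, -0.24, FDR 0.0665 by limma) was lower, with an FDR of 0.175 without mouse TG4. The median log2 ratio was 0.03 over the partners and -0.02 over the other scaffolds.

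The summed signals of the marker lists given here overlapped between WT and TG mice, and the sums were not tested. Of 6 astrocyte probes 3 passed, higher in TG as labelled, with summed signals of 3283 to 3832 in WT mice and 3799 to 4682 in TG mice. The called probes were those of Aldh1l1 and 2 of Aqp4, while Gfap (A_52_P540991) was at -0.15 (FDR 0.137 by limma). Of 8 oligodendrocyte probes 2 passed, lower in TG, with 29138 to 37931 in WT and 23407 to 30326 in TG. Of 14 neuronal probes 0 passed (limma, 5 at an unadjusted p under 0.05), with 50189 to 56247 in WT and 45056 to 52210 in TG. Mouse TG4 was the highest TG mouse for astrocytes and the lowest for oligodendrocytes and neurons. Their part in the members' values was not tested, and in whole tissue fewer cells of a type and less RNA per cell cannot be told apart.

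The genes whose log2 ratios were most like those of Cask A_51_P167232 over the 10 arrays were Zfhx3 (Pearson r = 0.90), Dner (0.89), Cast (0.87), Zfp72 (0.86) and Selenop (0.86). These arrays share mice, and none of the 5 probes passed the FDR. The 5 were picked as the highest r among all present probes with another gene symbol. High values of r over 10 arrays can arise from such a search alone, and the likeness was not tested.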

How the data were processed

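The authors scanned 10 two-color Agilent arrays, and the deposited files hold unnormalized pixel intensities of each spot, as a mean and as a median, beside background and flags. Log10 ratios in these files were, per the file headers, corrected and dye-normalized by the scanner software. ABI intensities of 33012 probes were deposited without normalization and were used for Tmem254a alone, because 0 of these probes carried an accession of a member. The 80 per-sample columns of Illumina were not used, since they are named by chip and position.

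Within-array loess was applied to mean intensities, with no background correction or filter and with control spots at no weight, and spots of a probe were averaged. Log2 ratios were fitted with an intercept by limma 3.58.1 in R 4.3.3, with Benjamini-Hochberg adjustment across the 41174 probes and an FDR of 0.1 as the limit. For ABI, vsn was written anew from its published model. Signals per mouse are means of both channels after Aquantile normalization. Slide numbers fall into 2 runs that coincide with dye orientation, so slide and orientation cannot be told apart. Arrays with the same WT mouse number hold the same animal, as the labels give it. The consensus correlation of such arrays was -0.25 with the WT mouse as a replicate block and -0.14 with the TG mouse.

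Named were all probes of the members, up to 8 called probes of the listed partners, and the 5 genes most like Cask. Members, lists and tests were chosen with earlier results of these data known, and the clone probes were added as a description. The code was tested on simulated data. Precision is limited by the number of mice, 5 WT and 5 TG, each of which is on 2 arrays. The alternatives covered background correction, normalization, pixel medians, dye, mice as blocks, 1 value per mouse, robust fits, flagged spots, present probes, a stricter FDR and leaving out each array or mouse.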

Additional observations from a re-analysis of the deposited data

Results flagged for a closer look

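The log2 ratio of Lin7c A_51_P145433 differed between the dye orientations, by -0.15 (arrays 1 to 5 minus arrays 6 to 10, FDR of the dye term 0.0354 by limma). No single array stood apart for a member probe by its gap to the next one, a measure that does not see arrays 1 and 9 where they lie together.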

How the results depend on the processing

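The count of 5 called member probes was 1 with median centring, 3 at an FDR of 0.05, and 0 with 1 value per mouse, also when arrays 1 to 5 and 6 to 10 were exchanged (limma, 3 at an unadjusted p under 0.05 in both). For all probes, 3053 became 1335 with median centring, 1203 at an FDR of 0.05, 24 with 1 value per mouse and 11 after the exchange. The 4 called probes of both partner lists together (1 of the CASK and LIN7 partners and 3 of the other scaffolds) became 1 at an FDR of 0.05, and 0 with 1 value per mouse and after the exchange (limma, 5 and 4 at an unadjusted p under 0.05). With the WT mouse as a replicate block, 7 member probes, 7 partner probes and 5969 of all probes were called, Shank3 and Lin7c A_52_P124279 being the added members, and the consensus correlation was negative. Leaving out 1 array or 1 mouse gave 0 to 5 member probes, 282 to 3404 of all probes and 0 to 5 partner probes. The 0 member probes arose without mouse WT4 (limma, 9 at an unadjusted p under 0.05).

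Of 33 alternatives, Dlg1 A_52_P36731 was called in 30, Lin7b in 26, Lin7c A_51_P334118 in 22, Cask A_51_P167232 in 17 and Dlg1 A_51_P101858 in 10, and none of these 5 probes turned its sign. Signs turned for probes near 0. Dlg2 was at -0.00022 with median pixel intensities and at -0.043 with median centring. Dlg3 was at 0.11 with median centring and 0.010 with robust regression, and Lin7a A_51_P391777 at -0.029 with median centring. Leaving out 1 array or mouse, Dlg2 ranged from -0.026 to 0.051, Dlg3 from -0.021 to 0.026 and Lin7a A_52_P674467 from -0.0015 to 0.079. The cause of these changes was not tested. The planned ABI comparison of the members and its alternatives were not run, because no ABI probe matched a member.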
